A study of Arabidopsis thaliana with 4 samples.

Results

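The 10 genes described here encode steps of tetrapyrrole and chlorophyll synthesis in Arabidopsis thaliana. They are HEMA1, HEMA2, HEMB1, GUN4, GUN5, CHLM, PORA, PORB, PORC and CAO, and they were chosen by name from the 27444 protein-coding nuclear genes of the RefSeq gene table. For each gene, all summits of TCP4 ChIP-seq peaks inside the gene or within 3000 bp of either end were collected, absence included. Chromatin was taken from seedlings kept for 4 days in darkness after 3 days of stratification at 4 °C and 3 to 4 h of white light. An anti-Myc ChIP library and an input library were made from wild type (Col), and the same pair from a TCP4 overexpression genotype labelled mTCP4. The labels do not give the promoter of the construct, the number of lines or the number of pooled seedlings. TCP4 is a transcription factor of the TCP family whose genes act in leaf growth, and the series looked for its targets in seedlings.

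Tetrapyrroles are ring-shaped pigments made in the plastid from glutamate. A common early route leads to protoporphyrin IX, where iron insertion opens the branch to heme and to the chromophore of phytochrome, and magnesium insertion opens the branch to chlorophyll. In flowering plants the reduction of protochlorophyllide needs light. A seedling grown in darkness therefore accumulates protochlorophyllide bound to its reductase, POR, and turns green only after it is lit.

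For the series, 1 list of peaks of mTCP4 against Col was given, with 7470 summits in 6220 numbered peaks. Each genotype had 1 ChIP library, so no value below has a replicate error and none was tested. Fold is the authors' own value for each summit, the fragment pileup divided by the local control level after 1 is added to each. Over all summits it ran from 1.67 to 16.4 with a median of 3.43. The range given after a fold is a 95% exact Poisson interval of its fragment number, which ran from 43 to 355 per summit with a median of 86. These intervals hold the control level fixed. They cover counting error of the fragments only and leave out any error of the control level. Coordinates are those of build TAIR10. Strand is not given in the gene table used, so gene ends are named by coordinate, and upstream and downstream were not told apart. The list holds no expression values, so the tissue and the overexpression could not be checked against marker genes or TCP4 transcript.

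Of the 10 genes, 3 had a summit inside or within 3000 bp, and 7 had none. The 3 genes were PORB, PORA and HEMB1, each with 1 summit. Over all protein-coding genes the same rule gave 8996 genes, or 32.8%, so the 3 of 10 lay near the background share. All 3 summits were just outside the member, 36 to 159 bp from its end, and no member had a summit inside its body. The summit beside HEMB1 was inside a neighbouring gene, COX19-2. No member had its nearest summit between 159 and 5323 bp, so the same 3 genes were counted with limits of 1000, 2000 or 5000 bp. The background share was 19.7% at 1000 bp, 26.5% at 2000 bp and 43.9% at 5000 bp, while the members' count stayed at 3. Gene bodies alone held a summit in 6.75% of protein-coding genes.

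**Figure D1:**
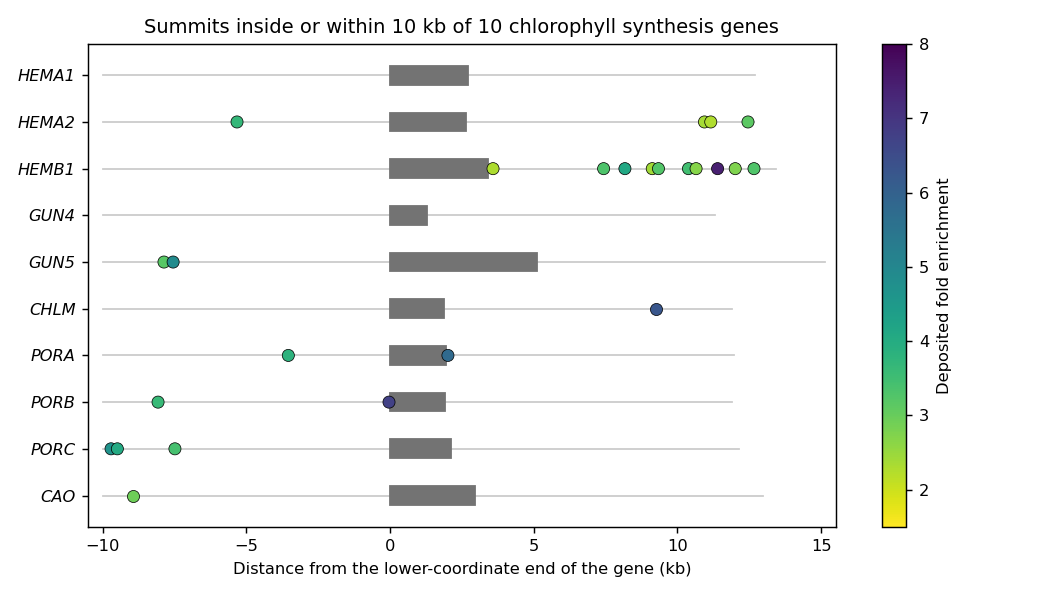
Summits inside or within 10000 bp of the 10 chlorophyll synthesis genes. Each line is a gene with 10000 bp on either side, the grey box is the gene drawn from its lower to its higher coordinate, and each circle is a summit coloured by its deposited fold; the horizontal axis is the distance in kb from the lower-coordinate end. PORA, PORB and HEMB1 have a summit at a gene end, and HEMA1 and GUN4 have none in the window.

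The POR genes encode light-dependent NADPH:protochlorophyllide oxidoreductases. PORA and PORB are both known from dark-grown seedlings, though not as forms of darkness alone, and PORC is known from plants in the light. PORB (AT4G27440) had a summit at position 13725510 of chromosome 4, 36 bp outside its lower-coordinate end. A pileup of 136.32, or 185 fragments, stood there over a control level of 19.4, which gave a fold of 6.73 (5.80 to 7.77) and a −log10 q of 63.6. Of all summits, 8.18% had a fold as high or higher, and 5.49% had as many fragments or more. It was the highest fold within 3000 bp of any of the 10 genes.

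PORA (AT5G54190) had a summit at position 21992877 of chromosome 5, 63 bp outside its higher-coordinate end. Its 124 fragments, a pileup of 91.37 over a control level of 15.0, gave a fold of 5.77 (4.81 to 6.87) and a −log10 q of 37.8. A fold as high or higher was listed for 13.9% of summits, and as many fragments or more for 23.2%. The intervals of PORA and PORB overlapped, so the 2 folds were not told apart at this depth. PORB had 1.49 times the fragments of PORA, and 1.17 times the fold.

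Both summits lay in a short gap between genes. The PORB summit was 151 bp from the neighbouring gene AT4G27435, so the 2 distances added up to 187 bp. The PORA summit was 277 bp from AT5G54200, with a sum of 340 bp. In each case the POR gene was the nearer of the pair, and each summit was its numbered peak's only one. A summit in such a gap belongs by position to both neighbours. With 3000 bp on either side, 4 protein-coding genes lay within reach of the PORB summit and 3 of the PORA summit, against a median of 2 over all summits.

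Most summits this close to a gene had lower folds. Over the 659 summits that lay 1 to 100 bp outside their nearest protein-coding gene, the median fold was 3.24 and the upper quartile 4.36. Both POR summits were above that quartile. Counted over genes, 3.88% of all protein-coding genes had a summit within 3000 bp with a fold of at least that of PORB, and 6.37% one of at least that of PORA.

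PORC (AT1G03630) differed from the other POR genes in position. Its nearest summit, at position 900040 of chromosome 1, was 7483 bp from its lower-coordinate end. The fold there was 3.43 (2.80 to 4.16), from 101 fragments. That summit was 246 bp from PSB27, a gene for a photosystem II assembly protein. On the other side of PORC no summit was listed for 65359 bp, and on the higher-coordinate side of PORB none for 83338 bp. PORA had a second summit at 3538 bp, just past the limit, with a fold of 3.82 (3.17 to 4.57), and this one lay inside AT5G54170. The next summit from PORB was 8070 bp away, with a fold of 3.62 (2.95 to 4.41), and 531 bp from CIP7, which encodes a COP1-interacting protein.

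HEMA1, HEMA2 and HEMB1 belong to the early route. HEMA genes encode glutamyl-tRNA reductase, the controlled first step toward 5-aminolevulinic acid, and HEMB1 encodes 5-aminolevulinic acid dehydratase, which joins this precursor into porphobilinogen. HEMB1 (AT1G69740) had a summit at position 26235202 of chromosome 1, 159 bp outside its higher-coordinate end. Its 58 fragments gave a pileup of 42.74 over a control level of 18.0, a fold of 2.30 (1.76 to 2.96) and a −log10 q of 4.77. Of all summits, 93.5% had a fold as high or higher. The position is inside the neighbouring gene COX19-2, so HEMB1 was not the nearest gene to it.

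The fold at HEMB1 was lower than at either POR gene. With the control levels held fixed, the interval of HEMB1 did not overlap theirs. Error of the control levels was not included, and the difference was not tested. The fold was 2.51 times as high at PORA and 2.92 times as high at PORB. HEMB1 lost its summit at a stricter q of 1e-05 (background 31.7%), among the 50% of summits with the highest folds (19.7%), and when a summit counted for the nearest gene alone (17.7%). PORA and PORB kept theirs in these 3 settings. All 3 kept theirs with 1 summit per numbered peak (32.6%), and none had a summit at the lowest control level (6.90%).

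**Figure D2:**
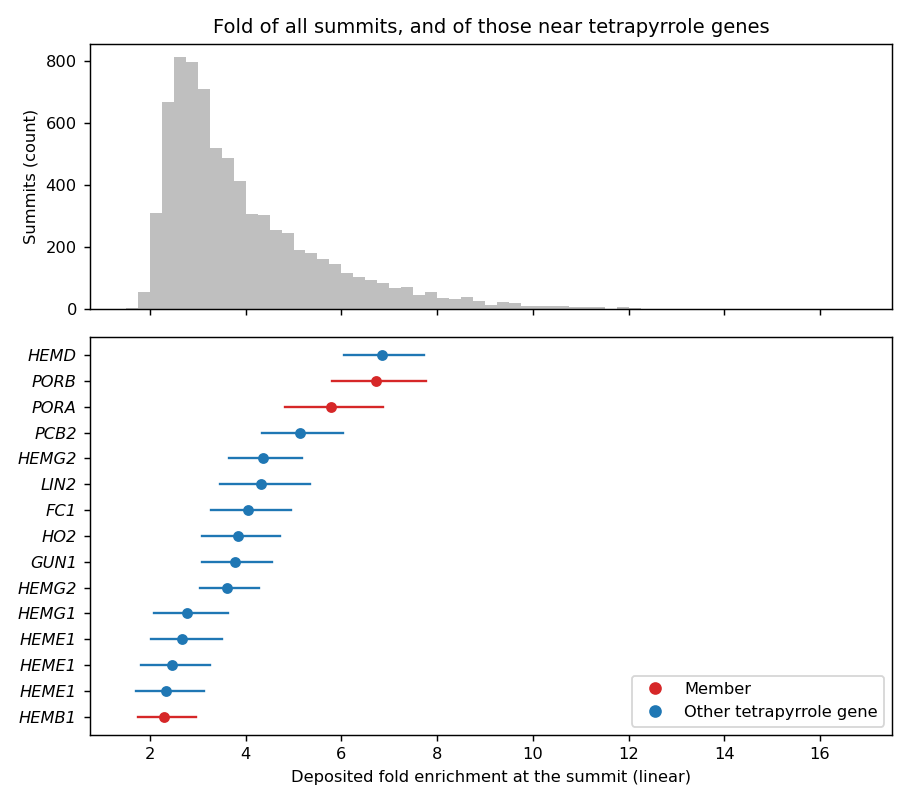
Fold of the summits near tetrapyrrole genes beside that of all summits. The upper panel counts all 7470 summits by deposited fold; in the lower panel each point is a summit inside or within 3000 bp of the gene named, with its 95% counting interval, in red for the 10 chlorophyll synthesis genes and in blue for the other tetrapyrrole genes. PORB at 6.73 and PORA at 5.77 lie in the upper part of the range and HEMB1 at 2.30 in the lower part.

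The region beyond HEMB1 was rich in summits. Within 10000 bp of the gene 10 were listed, all on its higher-coordinate side, and 0.310% of protein-coding genes had as many or more. The highest of them, at 7971 bp, had a fold of 7.44 (6.54 to 8.44) from 241 fragments, and its nearest gene was AT1G69760 at 2171 bp. The summit beside HEMB1 was the lowest of the 10 in fold. On the other side of HEMB1 no summit was listed for 15350 bp.

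HEMA1 (AT1G58290) is the HEMA gene known to be induced by light in green tissue. It lay farthest from a summit of all 10 genes, 19350 bp, and 80.6% of protein-coding genes had one as near or nearer. That summit had a fold of 3.65 (2.90 to 4.55), and its nearest gene was ZW2 at 3711 bp. The next one on the other side was 70489 bp away, so that HEMA1 lay in a stretch of 92541 bp without a summit. HEMA2 (AT1G09940), known more from roots, had its nearest summit at 5323 bp, inside AT1G09932, with a fold of 3.67 (2.87 to 4.64). It had 4 summits within 10000 bp, and 13.9% of genes had as many or more.

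GUN5, GUN4 and CHLM take the route into the chlorophyll branch. GUN5 encodes the H subunit of magnesium chelatase, the subunit that binds the porphyrin, GUN4 a porphyrin-binding protein that stimulates the chelatase, and CHLM the methyltransferase that acts on its product. None had a summit within 3000 bp. GUN5 (AT5G13630) had its nearest at 7546 bp with a fold of 4.88 (3.97 to 5.94), and that summit was 360 bp from AT5G13590. GUN4 (AT3G59400) had its nearest at 15924 bp with a fold of 3.02 (2.46 to 3.67), inside AT3G59350.

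CHLM (AT4G25080) had its nearest summit at 7365 bp, with a fold of 6.26 (5.22 to 7.44), between those of PORA and PORB. The position was inside FSD1, an iron superoxide dismutase gene. CAO encodes chlorophyllide a oxygenase, which makes chlorophyll b. CAO (AT1G44446) had its nearest summit at 8944 bp, with a fold of 2.93 (2.22 to 3.80), and 802 bp from ILL6.

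**Figure D3:**
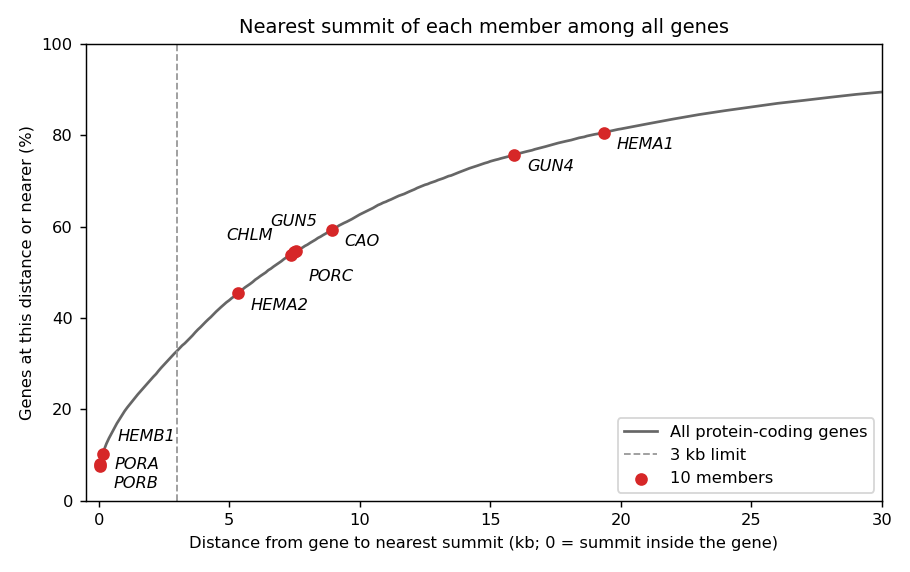
Distance from each gene to its nearest summit. The line gives the percentage of the 27444 protein-coding genes with a summit at that distance in kb or nearer, the red points are the 10 chlorophyll synthesis genes on that line, and the dashed line marks the 3000 bp limit. PORB, PORA and HEMB1 lie at the left edge, and the other 7 genes lie between 5323 and 19350 bp.

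The 7 genes without a summit within 3000 bp had their nearest summits between 5323 and 19350 bp. Over all protein-coding genes the median was 6403 bp and the quartiles were 1772 and 15467 bp. These values include the 32.8% of genes with a summit within 3000 bp, so they are not a like background for the 7. The median of all 10 members was 7424 bp. HEMA1 and GUN4 had no summit within 10000 bp, as did 37.3% of protein-coding genes. The members were of ordinary length, with a median of 2388 bp against 2078 bp over all genes. In order of distance, PORB, PORA and HEMB1 were followed by HEMA2, CHLM, PORC, GUN5, CAO, GUN4 and HEMA1.

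The rest of the pathway was read from a list of 31 other tetrapyrrole genes. Of these, 9 (29.0%) had a summit inside or within 3000 bp, again close to the background of 32.8%. The 6 with the highest fold were HEMD, PCB2, HEMG2, LIN2, FC1 and HO2. HEMD, for uroporphyrinogen III synthase, had a fold of 6.85 (6.05 to 7.73) at 2468 bp, where AR781 was nearer at 568 bp. PCB2, for the 8-vinyl reductase of the chlorophyll branch, had a fold of 5.14 (4.34 to 6.03) at 1753 bp, where AT5G18661 was nearer at 1242 bp. HEMG2, a protoporphyrinogen oxidase gene, held a summit in its body with a fold of 4.37 (3.65 to 5.18). A second HEMG2 summit, 262 bp outside its lower-coordinate end and inside AT5G14210, had a fold of 3.61 (3.04 to 4.27).

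LIN2 encodes coproporphyrinogen oxidase and had a fold of 4.33 (3.46 to 5.35) at 534 bp. FC1 encodes a ferrochelatase of the heme branch and had a fold of 4.05 (3.27 to 4.95) at 1392 bp. HO2, a heme oxygenase family gene, had a fold of 3.83 (3.08 to 4.71) at 273 bp, inside PLA2A. The remaining 3 genes were named after their values were seen. They were GUN1, a regulator of plastid signalling with a summit in its body at a fold of 3.77, and HEME1 and HEMG1, whose highest folds were 2.68 and 2.77. Of the 12 genes in all with a summit, PORB and PORA thus stood below HEMD in fold and above the other 9. The interval of PORB overlapped those of HEMD and PCB2. The interval of PORA overlapped those of HEMD, PCB2, LIN2, FC1 and the summit in the body of HEMG2.

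**Figure D4:**
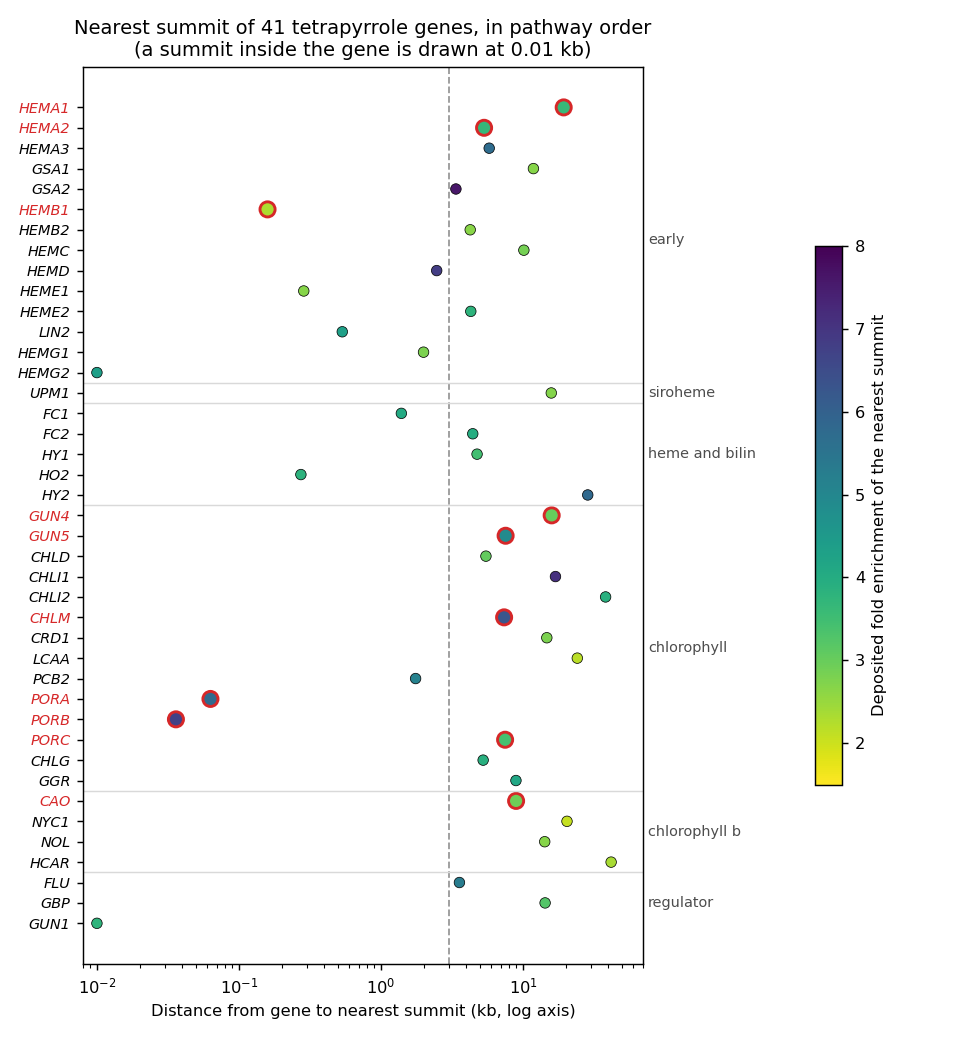
Nearest summit of the 41 tetrapyrrole genes in pathway order. The horizontal log axis gives the distance in kb from the gene to its nearest summit, the colour its deposited fold, and the dashed line the 3000 bp limit; the 10 chlorophyll synthesis genes are circled and named in red. In the chlorophyll branch, PORB, PORA and PCB2 lie left of the limit and the other 11 genes right of it.

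The members were also set beside their branches, which were drawn up after the data were seen. Their background is the 32.8% of all protein-coding genes given above. In the early route 6 of 14 genes (42.9%) had a summit, HEMB1 and 5 others. In the chlorophyll branch 3 of 14 (21.4%) had one. They were PCB2, PORA and PORB. The magnesium chelatase subunit genes CHLD, CHLI1 and CHLI2 were without one, like GUN5 and GUN4, and their nearest summits lay at 5485, 16933 and 38167 bp. None of the 4 genes of chlorophyll b, CAO among them, had one, with nearest distances of 8944 to 41750 bp. Outside these branches, 2 of 5 genes of heme and bilin metabolism and 1 of 3 regulators had a summit, and UPM1 of the siroheme branch had none. No test of a difference between branches was made.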

How the data were processed

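Per the submitters' processing notes, Bowtie 0.12.9 and MACS2 2.1.1 were used with build TAIR10. The sources used here give neither the calling threshold nor the use of the inputs. According to its header, the deposited list gives for each summit its position, the pileup (a signal), the fold as a linear ratio, and p-value and q-value as −log10. The control level was recovered as (pileup + 1) / fold − 1. All pileups (100%) were whole multiples of 0.737 within 0.01, and 1 step was taken as 1 fragment. A Poisson distribution returned the deposited −log10 p for 100% of summits within 0.05. The lowest control level was 12.9, at 1368 summits. Library totals were not analysed here.

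Genes were matched by locus tag (41 of 41) to RefSeq TAIR10.1, of which no coordinate is printed. With all summits moved along the chromosomes by −1000 to 1000 bp, every 100 bp, the share inside genes was lowest at a shift of 0. Distances were computed with Python 3.11.15, pandas 2.3.3 and SciPy 1.17.1. No sequence was analysed here, and the planned motif searches were not run. The members and lists were chosen with earlier results of these data known. All members were named, with their summits and the gene nearest to each, and up to 6 other tetrapyrrole genes by fold. Alternatives were other distance limits, gene bodies, nearest genes, 1 summit per numbered peak, the lowest control level, the 50% of summits with the highest folds and a q of 1e-05.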

Additional observations from a re-analysis of the deposited data

How the results depend on the processing

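The members with a summit numbered 3 with all summits and 2 or 3 in every alternative except gene bodies and the lowest control level, where there were 0, as for their summits. With a limit of 5000 bp the members' summits were 6 in place of 3, at the same 3 genes. Of the 31 other tetrapyrrole genes, 9 had a summit within 3000 bp (background 32.8%), 5 within 1000 bp (19.7%) and 15 within 5000 bp (43.9%). There were 2 with gene bodies (6.75%) and 2 at the lowest control level (6.90%). Of 27444 protein-coding genes, 8996 had a summit within 3000 bp, 5394 within 1000 bp, 12042 within 5000 bp and 1852 with gene bodies. With the upper 50% of summits there were 5404, at the lowest control level 1893 and with nearest genes 4859. These changes follow from fewer summits, another distance or, with nearest genes, from counting each summit for fewer genes. Ranked by fragments in place of fold, PORB, PORA and HEMB1 stayed within the range of their counting intervals. No paired analysis was possible because each group had 1 library. With 58 fragments the fold at HEMB1 had the widest relative interval of the 3.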
